A study of Caenorhabditis elegans with 24 samples.

Results

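The body and right end of the Caenorhabditis elegans X chromosome were examined as 10 kb bins of the ce11 genome. Every X bin starting above 4000000 was taken, except 1 bin at 8.34 Mb, which held excess reads in some libraries. This gave 1371 of 10032 bins of the genome (13.7%), with 1171 in the body (chrX:4000001-15720000, 11.72 Mb) and 200 in the right end (chrX:15720001-17718942, 1.999 Mb), which was kept apart. Of the 1371 bins, 3 did not vary between libraries and 6 fell below the filter on low counts, so 1362 were tested as single bins, 1163 in the body and 199 in the right end. All autosomal bins (8258) and, beside them, the left end of X (400 bins) served for comparison.

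The X chromosome of hermaphrodites is present in a pair and is bound along its length by the dosage compensation complex, a condensin that lowers its transcription. On worm autosomes the arms carry most of the heterochromatin marked by methylated histone H3 and lie at the nuclear envelope, where the chromodomain protein CEC-4 anchors them. On X such anchoring is known mainly for the left end, and the body is known to lie mostly away from the envelope. Emerin (EMR-1) is a LEM-domain protein of the inner nuclear membrane that binds the lamin meshwork, and a fusion of it to the bacterial methyltransferase Dam marks DNA that touches the envelope.

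DNA adenine methyltransferase identification (DamID) was carried out in L3/L4 larvae grown for 26 h at 22.5 °C on Dam-negative bacteria. Dam-EMR (Dam::EMR-1) was compared with a nuclear GFP-Dam fusion, which marks accessible DNA anywhere in the nucleus. Both fusions stood behind the heat shock promoter hsp-16.41 without induction, so that they were present at trace levels, and a recombinase driven by the muscle promoter myo-3 turned them on. The sample labels give the tissue as body wall muscle, whereas the design text names the intestine.

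Each fusion was measured in 4 strains, in 3 replicate rounds in which all strains were grown in parallel. The Y59C cec-4 strain carried GFP::LMN-1(Y59C), a lamin with a substitution that models a human Emery-Dreifuss muscular dystrophy mutation, together with the cec-4(ok3124) mutation. The Y59C strain carried the same lamin with intact cec-4. The GFP::LMN-1 cec-4 strain carried the unmutated GFP-tagged lamin with cec-4(ok3124), and the GFP::LMN-1 strain carried that lamin with intact cec-4. All strains therefore held a GFP-tagged lamin and a Dam fusion. Dam-EMR and GFP-Dam libraries that shared strain and round formed a pair, which gave 12 pairs from 24 libraries. Each library came from a pool of larvae, so fewer nuclei with a contact and fewer contacts per nucleus cannot be told apart.

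Dam-EMR libraries held 34948 to 6163206 reads over all bins and GFP-Dam libraries 2726628 to 19412320. These totals include mitochondrial bins and the left-out X bin. The body took 11.3% to 15% of the reads of a Dam-EMR library and 10.6% to 15.1% of those of a GFP-Dam library, for 11.7% of the bins. The right end took 2.17% to 3.16% and 2.14% to 3.31%, for 1.99% of the bins. In Dam-EMR libraries 0.34% to 30.1% of body bins were empty, and in GFP-Dam libraries at most 0.34%. The emptiest was the Y59C Dam-EMR library of round 3, the one with fewest reads, which had a median of 1 read per X bin. In all 12 libraries of each fusion, the share of empty bins was smaller in the body and in the right end than on autosomes.

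In mean log2 level, X bins carried more Dam signal than autosomal bins in every library, with either fusion. The level of a zone is given here as the mean over its bins of log2 CPM (reads scaled to the library total, with 1 read added per bin), minus the same mean over autosomal bins. For the body this Dam-EMR level lay between 0.16 and 0.97 (median 0.75, mean 0.63 ± 0.28, SD, n = 12), and the GFP-Dam level between 0.73 and 0.91 (median 0.85, mean 0.83 ± 0.06, n = 12). As ratios of geometric means over bins, the GFP-Dam value corresponds to 1.66 to 1.88 times the autosomal level, and the Dam-EMR value to 1.12 to 1.96 times. Shares of summed reads differ from this. In the lowest library the body took 10.6% of the reads with GFP-Dam and 11.3% with Dam-EMR, for 11.7% of the bins. For the right end the Dam-EMR level lay between 0.41 and 1.23 (mean 0.81 ± 0.29, n = 12) and the GFP-Dam level between 0.88 and 1.13 (mean 1.00 ± 0.08, n = 12). All 24 libraries were above 0 in both zones, and the Dam-EMR libraries were spread more widely than the GFP-Dam libraries. Among 18 zones, formed by cutting every chromosome into left end, body and right end in the same way, the right end of X had the highest mean GFP-Dam level and the body of X the third highest, after the body of III at 0.97. The left end of X lay lower, at 0.27.

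**Figure D1:**
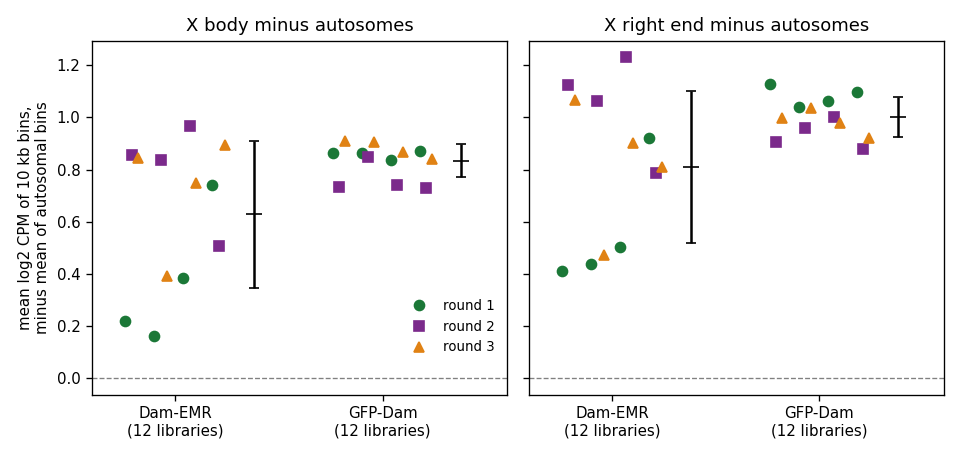
Level of the X body (left panel) and right end (right panel) in the 12 Dam-EMR and 12 GFP-Dam libraries, as mean log2 CPM of 10 kb bins minus the mean of autosomal bins. Symbols stand for rounds and bars for mean ± SD over 12 libraries. All points lie above 0, and the Dam-EMR points of round 1 reach lowest.

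The GFP-Dam level of X differed by little between strains, within the spread of the libraries. In the body it averaged 0.85 ± 0.06 in Y59C lamin libraries and 0.81 ± 0.06 in unmutated lamin libraries (SD, n = 6 each), a difference of 0.04 (95% interval −0.05 to 0.13, limma over 18 zones, adjusted p = 0.853). In cec-4 mutant libraries it averaged 0.82 ± 0.07 and in cec-4 intact libraries 0.84 ± 0.06 (n = 6 each), a difference of −0.02 (interval −0.10 to 0.07, limma adjusted p = 0.891). In the right end these differences were 0.02 (interval −0.08 to 0.12, limma adjusted p = 0.935) and 0.02 (interval −0.08 to 0.13, limma adjusted p = 0.891). All 4 intervals ended within 0.13 of 0.

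The log2 ratio of Dam-EMR to GFP-Dam was below the autosomal mean in most pairs, but not beyond the spread between pairs. In the body it averaged −0.20 ± 0.31 relative to autosomes (SD, n = 12 pairs), with a lowest pair of −0.70, a median of −0.12 and a highest pair of 0.23, and it was negative in 9 of 12. This was the lowest of the 18 zones. The limma test over 18 zones gave an adjusted p of 0.157 (95% interval −0.39 to −0.02), and no zone passed the threshold of 0.05 in either direction (0%). In the right end the ratio averaged −0.19 ± 0.34, from −0.72 to 0.23, negative in 8 of 12 pairs (interval −0.40 to 0.02, limma adjusted p = 0.248), the second lowest of the 18 zones. The body minus the right end was −0.01 ± 0.10 (n = 12), positive in 5 of 12 pairs, so these zones did not separate. The left end averaged −0.08 ± 0.15, negative in 8 of 12 pairs (limma adjusted p = 0.302).

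Averaged over strains, round 1 was the lowest in both zones. In the Y59C cec-4 strain the body ratio was −0.64, 0.12 and −0.06 in rounds 1, 2 and 3, and the right end ratio −0.72, 0.22 and 0.07. In the Y59C strain the body gave −0.70, −0.01 and −0.52, and the right end −0.60, 0.10 and −0.56. GFP::LMN-1 cec-4 gave −0.45, 0.23 and −0.12 in the body, and in the right end −0.56, 0.23 and −0.08. The GFP::LMN-1 strain varied least, with −0.13, −0.22 and 0.05 in the body and −0.17, −0.09 and −0.11 in the right end. Over strains, the body averaged −0.48 in round 1, 0.03 in round 2 and −0.16 in round 3, and the right end −0.51, 0.11 and −0.17. The Dam-EMR level of the body moved with it, averaging 0.38, 0.79 and 0.72 in the 3 rounds, whereas the GFP-Dam level averaged 0.86, 0.76 and 0.88.

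**Figure D2:**
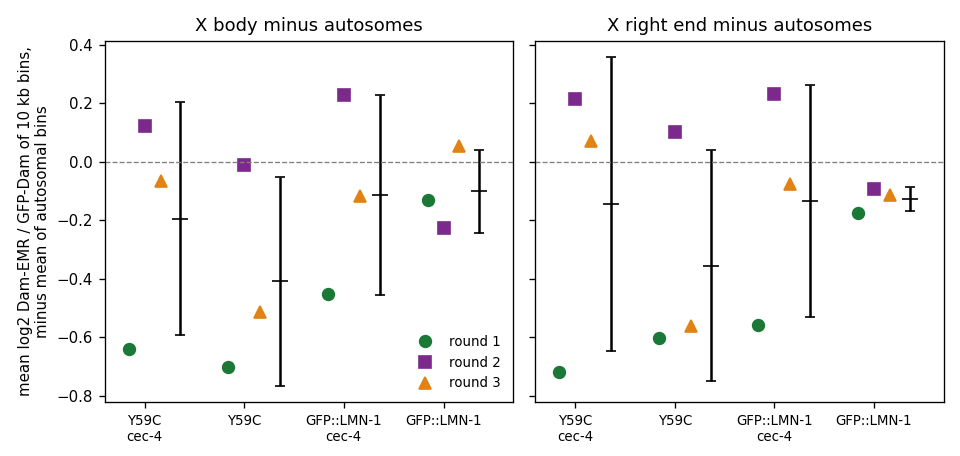
Mean log2 Dam-EMR / GFP-Dam of the X body (left panel) and right end (right panel) minus autosomes, for each strain and round. Bars are mean ± SD over 3 rounds. In 3 of the 4 strains the round 1 pair is the lowest of the strain in both zones, and in the GFP::LMN-1 strain the pairs lie close together.

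The value depended on how sparse bins were treated. With 5 reads added in place of 1, the body averaged −0.29 (limma adjusted p = 0.0123) and the right end −0.29 (limma adjusted p = 0.0246). With the added read scaled to the library total, the body averaged −0.04 and the right end −0.000131, and the Y59C pair of round 3, the shallowest, stood at 0.50 in the body and 0.44 in the right end. From reads summed over the whole zone the body gave 0.01 and the right end −0.12, and in bins with at least 50 GFP-Dam reads in every library the body gave −0.07 and the right end 0.01. Without round 2 the body averaged −0.32 and the right end −0.34 (limma adjusted p = 0.00278 for the right end), and without round 1 they averaged −0.07 and −0.03. Without the Y59C pair of round 2 the body averaged −0.25 (limma adjusted p = 0.0418).

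Because X bins have more GFP-Dam signal than autosomal bins, X was also compared with autosomal bins of a like GFP-Dam level, a comparison chosen after seeing the data. All bins were divided into 10 equal classes by their GFP-Dam level, and each bin was set against the autosomal bins of its class in the same pair. Of the X bins with reads, 850 of 1368 (62.1%) lay above the median GFP-Dam level of the genome, against 3918 of 8205 autosomal bins (47.8%). Within classes the body ratio averaged −0.13 ± 0.12 and was negative in 12 of 12 pairs, from −0.42 to −0.01 (limma over 18 zones, adjusted p = 0.00724). The body was the only 1 of 18 zones called lower (5.56%), and 3 zones, none of them on X body or right end, were called higher (16.7%). The right end averaged −0.10 ± 0.11 and was negative in 9 of 12 pairs (limma adjusted p = 0.0576). The round means in the body were −0.22, −0.11 and −0.07. These class values were computed with 1 added read only. They were not repeated with the scaled read or summed reads, which changed the body ratio without classes as given above.

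With 1 read added, the gap between X and autosomes was widest among bins with little GFP-Dam signal. The classes rest on the GFP-Dam level by which the ratio is divided. Class 1 ran from 0.129 to 3.81 CPM, where the added read weighs most. The part of the added read was not tested, and where X bins lay within a class was not compared. In class 1, which held 56 X bins, the mean log2 ratio was 0.31 on X and 0.70 on autosomes, a difference of −0.40 ± 0.30 (SD, n = 12 pairs), negative in 12 of 12. In class 3 it was −0.70 on X and −0.32 on autosomes, a difference of −0.38 ± 0.24, again negative in 12 of 12. From class 5 upwards the difference lay between −0.10 and −0.05. In class 10, with 203 X bins, it was −0.05 ± 0.07, negative in 8 of 12 pairs.

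**Figure D3:**
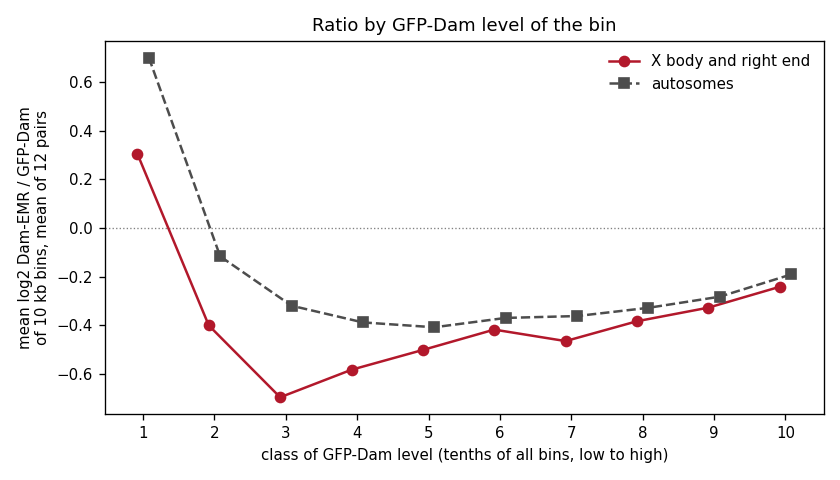
Mean log2 Dam-EMR / GFP-Dam over 12 pairs of X body and right end bins (solid line) and autosomal bins (broken line) in 10 classes of GFP-Dam level, low to high. The X line lies below the autosomal line in every class, by 0.40 in class 1 and by 0.05 in class 10.

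No strain difference of the X ratio was larger than the spread between rounds. In the body the strain means were −0.19 ± 0.40 in Y59C cec-4, −0.41 ± 0.36 in Y59C, −0.11 ± 0.34 in GFP::LMN-1 cec-4 and −0.10 ± 0.14 in GFP::LMN-1 (SD, n = 3 each). The mutant lamin was tested first. Y59C minus GFP::LMN-1 gave −0.31 in the body (95% interval −0.84 to 0.22, limma adjusted p = 0.617) and −0.23 in the right end (interval −0.83 to 0.37, limma adjusted p = 0.633). With the added read scaled to the library total these were −0.02 and 0.05. Loss of cec-4 in the mutant lamin, Y59C cec-4 minus Y59C, gave 0.21 in the body (interval −0.31 to 0.74, limma adjusted p = 0.621) and 0.21 in the right end (interval −0.39 to 0.81, limma adjusted p = 0.631), and with the scaled read −0.10 and −0.04. Loss of cec-4 in the unmutated lamin gave −0.01 in the body (interval −0.54 to 0.52, limma adjusted p = 0.989) and −0.01 in the right end (interval −0.61 to 0.59, limma adjusted p = 0.989). The difference between these cec-4 effects was 0.23 in the body (limma adjusted p = 0.865). None of the 18 zones was called in any of these comparisons (0% each).

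Along X the ratio lay below the autosomal mean in every 1 Mb window. In 14 windows of 1 Mb the mean ratio minus autosomes lay between −0.27 (chrX:7000001-8000000) and −0.12 (chrX:6000001-7000000), and it was below 0 in 14 of 14, against 43 of 85 autosomal windows. Autosomal windows of high GFP-Dam level and those in autosomal bodies were also mostly below 0, and reached lower than X. Of 49 autosomal windows with a GFP-Dam level above 0, 36 had a negative ratio, from −0.40 to 0.24 over all 49, and of 50 windows in autosomal bodies, 34, from −0.40 to 0.40. The SD over windows was 0.0413 on X, all on 1 chromosome, and 0.143 and 0.196 in these autosomal sets. No test of this difference was made. The GFP-Dam level of the windows ran from 0.43 (chrX:11000001-12000000) to 1.37 (chrX:16000001-17000000), with 1.24 and 1.22 in the windows starting at 4000001 and 5000001. It exceeded 0 in 14 of 14 X windows and in 49 of 85 autosomal windows. On summed counts, edgeR called 0 of 14 X windows higher, where 23.3% of all windows were called higher, and 0 lower, where 0% were. The edgeR log2 ratio of X windows lay between −0.11 and 0.17, with a median of 0.05, against a median of 0.19 over autosomal windows. Without round 1, 2 X windows were called higher. The limma test of the mean ratio gave adjusted p values from 0.084 to 0.333 for these windows.

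**Figure D4:**
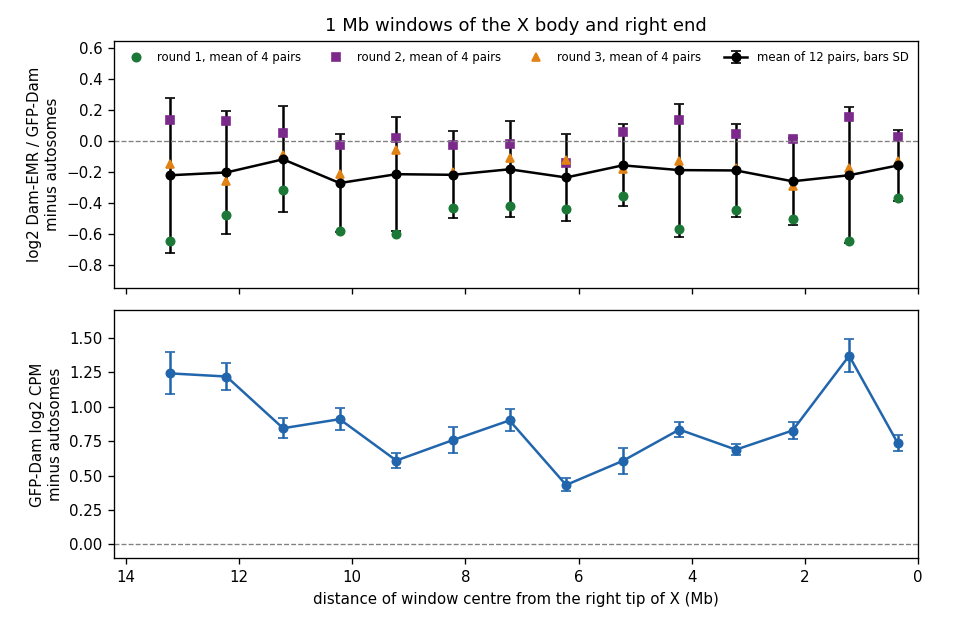
The 14 windows of 1 Mb from the start of the body (left) to the right tip of X (right). The upper panel shows mean log2 Dam-EMR / GFP-Dam minus autosomes with bars for SD over 12 pairs and the mean of each round, and the lower panel the GFP-Dam level with SD over 12 libraries. The ratio stays between −0.27 and −0.12, and round 1 is the lowest in every window.

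Single X bins were called in both directions. With the 4 strains averaged, edgeR at an adjusted p under 0.05 called 7 of 1362 X bins higher (0.514%), against 1.29% of all bins tested and 1.44% of autosomal bins. It called 27 lower (1.98%), against 1.8% of all bins and 1.75% of autosomal bins. The right end held 2 of the 7 and 5 of the 27. The fitted log2 ratio had a median of −0.16 over X bins (−0.13 in the right end) and −0.04 over autosomal bins, with an SD of 0.823 on X and 1.02 on autosomes. It was below 0 in 60.5% of X bins and in 53.8% of all bins. The X median relative to the autosomal median was −0.12 with TMM factors, −0.13 with RLE factors, which moved the median of all bins by 0.105, and −0.12 with library totals. The counts moved with the scaling and the tool: RLE factors gave 11 higher and 12 lower, library totals 4 higher and 26 lower, and DESeq2 38 and 65. They also rested on few rounds: without round 2, 0 bins were called higher and 1 lower, without round 3, 0 and 0, and without round 1, 16 and 44. Leaving out the GFP::LMN-1 pair of round 2 left 1 and 3, and that of round 3 left 2 and 6. Each of the other pairs, left out alone, gave 3 to 6 higher and 13 to 44 lower.

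The 7 bins called higher had Dam-EMR levels that differed widely between libraries (CPM of single bins are TMM-scaled). The bin of cest-7, which encodes a protein of the carboxylesterase family, and C23H4.6 (chrX:12230001-12240000) had 0, 36.8 and 932 CPM as the lowest, median and highest of 12 Dam-EMR libraries, and 4.47, 11.9 and 21.1 CPM in GFP-Dam libraries. The fusions overlapped, and Dam-EMR of the Y59C cec-4 strain reached 762 CPM in round 1 and 932 CPM in round 3. Its log2 ratio was 2.58 ± 0.50 (SE), positive in 10 of 12 pairs (edgeR adjusted p = 0.00774). The bin of vit-2, a yolk protein made in the intestine of adult hermaphrodites, and C42D8.9 (chrX:5100001-5110000) had 29.2, 151 and 713 CPM in Dam-EMR libraries and 17.4, 46.3 and 91.3 CPM in GFP-Dam libraries. Its log2 ratio was 1.68 ± 0.40 (SE, edgeR adjusted p = 0.0259), positive in 10 of 12 pairs, and its highest library was again Dam-EMR of the Y59C cec-4 strain in round 1. The bin of ref-2, a zinc finger transcription factor of the Zic family, and K09F5.1 (chrX:7740001-7750000) had 25.3, 62.1 and 219 CPM in Dam-EMR libraries and 17.9, 36.1 and 67.1 CPM in GFP-Dam libraries (log2 ratio 1.22 ± 0.34, edgeR adjusted p = 0.0468). The remaining 4 were the bin of F23A7.5 in the right end (log2 ratio 1.14), that of F46C8.8 and PDB1.1 (1.11), and the bins chrX:12530001-12540000 (1.70) and chrX:17700001-17710000 (1.91), which hold no protein-coding gene midpoint. All 7 were positive in at least 10 of 12 pairs.

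Of the 27 bins called lower, 15 had Dam-EMR reads in every strain, and 5 were negative in all 12 pairs. The bin of lgc-21, a subunit of the ligand-gated ion channel family (chrX:14060001-14070000), had 13.6, 31 and 50.6 CPM as the lowest, median and highest of 12 Dam-EMR libraries and 73.7, 85.3 and 108 CPM in GFP-Dam libraries. Every Dam-EMR library lay below every GFP-Dam library. Its log2 ratio was −1.62 ± 0.29 (SE), negative in 12 of 12 pairs (edgeR adjusted p = 0.00575), with round means of −1.47, −2.23 and −1.04. The bin of the chemoreceptor sru-48 with T03G11.9 and the immunoglobulin-domain gene zig-6 (chrX:5180001-5190000) had 10.3, 35.9 and 102 CPM in Dam-EMR libraries and 55.7, 77.9 and 122 CPM in GFP-Dam libraries (log2 ratio −1.19 ± 0.34, edgeR adjusted p = 0.0496). The bin of the cuticle collagen col-176, dao-4 and ZC373.5 (chrX:10070001-10080000) had 25.3, 116 and 274 CPM in Dam-EMR libraries and 145, 224 and 330 CPM in GFP-Dam libraries (log2 ratio −0.99 ± 0.28, edgeR adjusted p = 0.0468). In these bins the fusions overlapped across libraries, although each pair was negative.

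The other bins with reads in every strain, apart from that of cab-1, were singled out after their values were seen. The bin of syd-9, a zinc finger protein needed for synapses (chrX:7220001-7230000), had 43, 161 and 201 CPM in Dam-EMR libraries and 175, 266 and 315 CPM in GFP-Dam libraries (log2 ratio −0.91 ± 0.24, edgeR adjusted p = 0.0398, negative in 12 of 12 pairs). The bin of R03E9.2 (chrX:6730001-6740000) had a median of 54.2 and a highest value of 90 CPM in Dam-EMR libraries, and 84, 113 and 166 CPM in GFP-Dam libraries (log2 ratio −1.24 ± 0.33, edgeR adjusted p = 0.0392, negative in 12 of 12 pairs). The bin of pak-1, a kinase activated by small GTPases, had a log2 ratio of −1.04, that of the mitochondrial sirtuin sir-2.2 with F46G10.2 −1.18, and that of the tyramine receptor tyra-3 with M03F4.4 −0.93. The bin of aco-1, a cytosolic aconitase, and the organic cation transporter oct-2 had −1.45. The bins of F47E1.4 (−1.61), the tetraspanin tsp-8 with F33C8.2 (−1.90), the degenerin-like channel del-8 (−2.27), C11G10.1 (−2.41) and cab-1 (−2.77) each had at least 1 Dam-EMR library with 0 reads. With the round as a block, the cab-1 bin was no longer called (edgeR adjusted p = 0.0662). The bin chrX:16340001-16350000 in the right end, with no protein-coding gene midpoint, had −0.76.

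**Figure D5:**
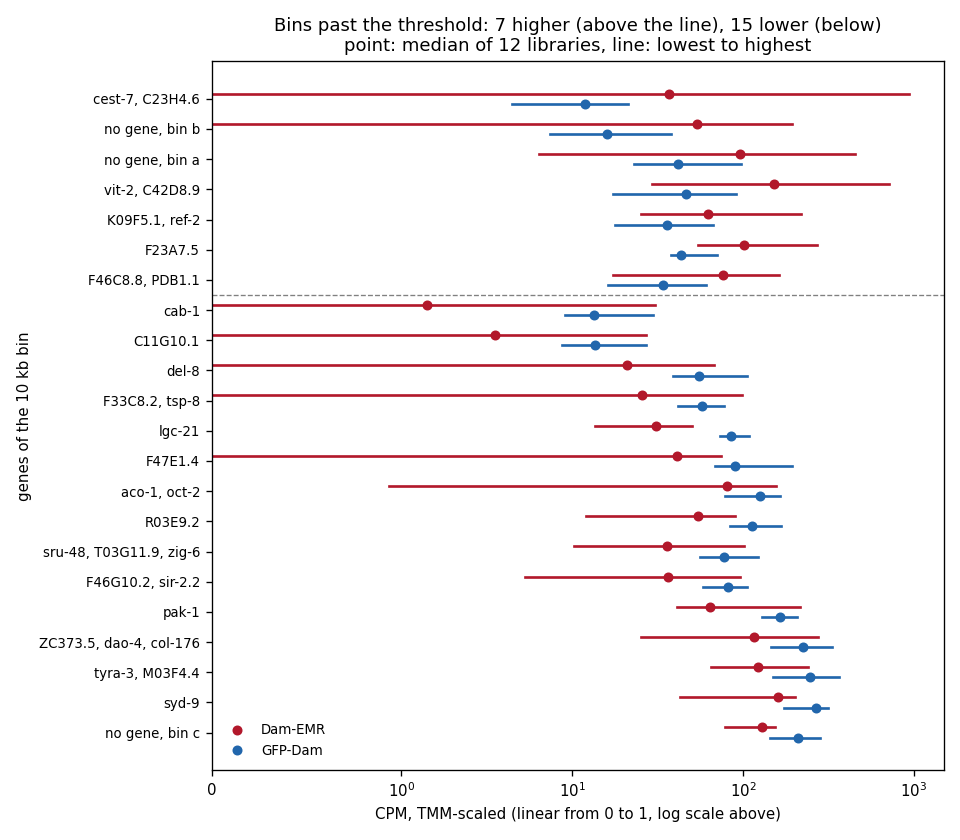
The 7 X bins called higher (above the broken line) and the 15 called lower with Dam-EMR reads in every strain (below it). Points are the median CPM (TMM-scaled) of 12 Dam-EMR and 12 GFP-Dam libraries and lines run from the lowest to the highest library, on an axis that is linear from 0 to 1 and logarithmic above. The lgc-21 bin is one where the fusions do not overlap, with 13.6 to 50.6 CPM in Dam-EMR and 73.7 to 108 CPM in GFP-Dam libraries. Bins a, b and c, without a protein-coding gene midpoint, have log2 ratios of 1.70, 1.91 and −0.76.

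The other 12 bins called lower held no Dam-EMR read in at least 1 strain, the Y59C strain in 11 of them, so their fitted folds are not given. The bin of nhr-28, a nuclear hormone receptor in the right end, held 122 Dam-EMR reads in 12 libraries, 6 of them at 0, and 1326 GFP-Dam reads. The bin of sgk-1, a kinase of the insulin and stress pathways, held 196 Dam-EMR reads and 1907 GFP-Dam reads, and the bin of C09B8.8 and C09B8.4 held 327 and 2945. The bin of F10D7.3 and F10D7.10 held 93 and 1090 reads, and the bins of T10B10.8 with T10B10.9 and of F23A7.3 held 75 and 1163 and 34 and 500. The bins starting at 9360001, 13030001 and 15630001, with no protein-coding gene midpoint, held 83, 37 and 33 Dam-EMR reads against 863, 524 and 272 GFP-Dam reads. The bin starting at 15630001 was no longer called with the round as a block (edgeR adjusted p = 0.0586). The rest held mnm-2, hex-5 or the cytochrome P450 genes cyp-14A1 and cyp-14A2. Empty bins were fewer on X than on autosomes in each strain: 17 X bins (1.24%, autosomes 3.12%) held no Dam-EMR read in the Y59C cec-4 strain, 61 (4.46%, autosomes 8.67%) in Y59C, 4 (0.292%, autosomes 0.39%) in GFP::LMN-1 cec-4 and 9 (0.658%, autosomes 1.66%) in GFP::LMN-1. The summed Dam-EMR depth of these strains was 7543477, 3159465, 9905578 and 4529372 reads. Y59C had the fewest reads and the most empty bins, and GFP::LMN-1 cec-4 the most reads and the fewest empty bins, but Y59C cec-4 had more reads and more empty bins than GFP::LMN-1. The part of depth in the counts was not tested.

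Within single strains, edgeR called X bins in Y59C and in no other strain, and differences between strains were tested apart. In Y59C it called 1 X bin higher, against 0.0616% of all bins, and 14 lower, against 0.894%, of which 5 held no Y59C Dam-EMR read. The bin called higher holds unc-3 (chrX:14770001-14780000), a transcription factor of motor neurons (log2 ratio 3.20 in Y59C, edgeR adjusted p = 0.0342), named after its value was seen. No X bin was called in the Y59C cec-4, GFP::LMN-1 cec-4 or GFP::LMN-1 strain (edgeR, 0% of all bins in each). At an unadjusted p under 0.05 the counts of X bins higher and lower were 45 and 81 in Y59C cec-4, 58 and 193 in Y59C, 13 and 22 in GFP::LMN-1 cec-4 and 10 and 20 in GFP::LMN-1. DESeq2 called 8 higher and 10 lower in Y59C cec-4, 40 and 74 in Y59C, 0 and 0 in GFP::LMN-1 cec-4, and 0 and 1 in GFP::LMN-1. In Y59C, RLE factors gave 0 higher and 2 lower, and library totals 0 and 5. Without round 2 or without round 3, 0 bins were called in Y59C, and without round 1, 0 higher and 2 lower. Leaving out the Y59C pair of round 1, 2 or 3 gave 4, 6 or 39 lower. Leaving out pairs of other strains, which changes the shared estimate of the spread, gave as few as 2 lower (GFP::LMN-1, round 2).

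Between strains, 2 bins of the X body were called, both lower in Y59C than in GFP::LMN-1, and they were the only bins called in the genome in this comparison (0.0205%). The first holds ugt-50, a UDP-glucuronosyltransferase, the microRNA mir-62 and the nuclear hormone receptor nhr-26 (chrX:12690001-12700000). It held 0 Dam-EMR reads in all 3 Y59C libraries, against 43, 26 and 151 reads in the GFP::LMN-1 libraries of rounds 1, 2 and 3. The strain difference of the ratio had an edgeR adjusted p of 0.0482. With 3 reads over the Y59C group as the floor, Dam-EMR was 51.2-fold lower in Y59C, a bound set by that floor and not a measured fold. The 95% counting limit lay below this, at 41.3-fold lower. Reads were pooled over 3 libraries, and round 2 gave 2587514 of the 3159465 Dam-EMR reads of Y59C. The second holds grd-1, a groundhog gene of the hedgehog-related family, the neuropeptide-like nlp-66 and R08B4.3 (chrX:11110001-11120000). It held 0, 1 and 0 Dam-EMR reads in Y59C, against 52, 63 and 127 in GFP::LMN-1. Pooled in the same way, this was 169-fold lower with a counting interval of 30 to 6690 (edgeR adjusted p = 0.0338). In both bins edgeR tested the strain difference of the Dam-EMR over GFP-Dam ratio, not these folds. With the round as a block, neither bin was called (edgeR adjusted p = 0.0729 for the ugt-50 bin and 0.0536 for the grd-1 bin). GFP-Dam, as CPM of the library totals pooled over 3 libraries, stood at 20.5 CPM in Y59C and 22.1 CPM in GFP::LMN-1 in the ugt-50 bin, and 37.4 and 36.3 CPM in the grd-1 bin.

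These bins held Dam-EMR reads in the strains with mutated cec-4. The ugt-50 bin held 11, 124 and 57 reads in Y59C cec-4, and the grd-1 bin 5, 107 and 331. The increase of Y59C cec-4 over Y59C missed the threshold (edgeR adjusted p = 0.0516 in both). Both bins were chosen for their low Y59C values, and this comparison uses the same Y59C libraries. It is therefore no independent test of a return of contacts in them. No X bin was called in Y59C cec-4 minus Y59C, in GFP::LMN-1 cec-4 minus GFP::LMN-1 or in the difference of these effects (0% of all bins in each). At an unadjusted p under 0.05, 19 X bins were higher and 122 lower in Y59C than in GFP::LMN-1, 124 and 58 in Y59C cec-4 than in Y59C, and 18 and 9 in GFP::LMN-1 cec-4 than in GFP::LMN-1. With the round as a block, with RLE factors or with library totals alone, 0 bins were called lower in Y59C than in GFP::LMN-1. Leaving out round 1, round 2, round 3 or the GFP::LMN-1 pair of any single round also left 0, as did leaving out the Y59C pair of round 1 or 2 or the GFP::LMN-1 cec-4 pair of round 1 or 3. Leaving out any Y59C cec-4 pair left 1, and leaving out the shallow Y59C pair of round 3 gave 10. For Y59C cec-4 minus Y59C, leaving out the Y59C pair of round 3 gave 9 bins higher, that of round 1 gave 3, and the GFP::LMN-1 cec-4 pair of round 2 gave 2.

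Genes of the labelled tissue had high Dam signal on X. The list of body wall muscle genes placed 24 genes in 23 X bins, with a list median of 137 to 342 CPM in Dam-EMR libraries and 175 to 393 CPM in GFP-Dam libraries. Over all X bins tested the median was 24.6 to 47.4 CPM and 43.3 to 47.1 CPM, and the muscle median was higher in 24 of 24 libraries. Levels between genes are per bin of equal length, and a Dam level is not an RNA level. Median GFP-Dam levels were 1560 CPM for let-2, a basement membrane collagen, 1080 CPM for the troponin T gene tnt-3, 883 CPM for the actin act-4, 815 CPM for pat-9, a transcription factor required in this muscle, and 774 CPM for the troponin T gene tnt-2. At the other end stood hnd-1, an early mesoderm factor, at 13.2 CPM, and the troponin I gene unc-27 at 11.5 CPM. The log2 ratio of muscle bins had a median of −0.35, with 17 of 23 below 0, and 0 were called. Over all X bins the median was −0.16, with 60.5% below 0. The gene with the smallest p was csq-1, the calsequestrin of the sarcoplasmic reticulum (log2 ratio −0.75 ± 0.30, edgeR adjusted p = 0.154).

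The lists of yolk and intestine, neuronal and chemoreceptor genes had lower medians than the muscle list. Single bins varied within lists, and that of unc-115 in the neuronal list had a median of 1280 CPM in GFP-Dam. Yolk and intestine genes filled 6 X bins with a list median of 10.6 to 127 CPM in Dam-EMR libraries and 28.7 to 39.8 CPM in GFP-Dam libraries, above the median of all X bins in 6 of 24 libraries. Of these 6 bins, 1 was called higher (vit-2), where 1.29% of all bins were, and 0 lower. The bin of elt-2, the main intestinal GATA factor, had 29.9 CPM in GFP-Dam. Neuronal genes filled 49 bins at 10.5 to 65.2 CPM in Dam-EMR and 35.7 to 49.2 CPM in GFP-Dam libraries, above the X median in 9 of 24 libraries, with 0 called. The smallest p among them belonged to acr-12, an acetylcholine receptor subunit of motor neurons (log2 ratio −1.28, edgeR adjusted p = 0.0603). Chemoreceptor genes filled 21 bins at 1.76 to 40.8 CPM in Dam-EMR and 21.9 to 40.3 CPM in GFP-Dam libraries and lay below the X median in every library. Of them 1 was called lower (sru-48), where 1.8% of all bins were, and 0 higher, and the list median of the log2 ratio was −0.39. The pharyngeal muscle list placed myo-2 alone in the body (143 CPM in Dam-EMR, log2 ratio 0.43, edgeR adjusted p = 0.324), and the germline list him-4 alone, which the muscle list also holds (270 CPM).

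The genes that set and read X dosage showed no called bin. The list placed 4 genes on the body and right end. The bin of sex-1, a nuclear receptor that counts X chromosomes, had 556 CPM in GFP-Dam and a log2 ratio of 0.14. The bin of xol-1, the switch gene that sex-1 represses, had 0, 9.3 and 38.3 CPM in Dam-EMR libraries and 19.1, 23.8 and 34.3 CPM in GFP-Dam libraries. Its log2 ratio was −1.31 ± 0.49, negative in 11 of 12 pairs (edgeR adjusted p = 0.126). The bins of sdc-2, which brings the dosage compensation complex to X, and sdc-1, a partner of it, had log2 ratios of −0.16 and 0.48.

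The remaining lists held few calls. Cuticle collagens (22 bins), nuclear hormone receptors (24 bins) and ligand-gated ion channel subunits (19 bins) each had 1 bin called lower, those of col-176, nhr-28 and lgc-21 above, and 0 higher, where 1.8% of all bins were called lower and 1.29% higher. Developmental transcription factors (29 bins), innexins (6), microRNAs (32), potassium channels (16), F-box and MATH-BATH genes (7), heat shock genes (3), nuclear envelope genes (2) and C-type lectins (2) had 0 called. The smallest p values were those of dsc-1, a homeobox gene of the defecation motor programme (log2 ratio −1.20, edgeR adjusted p = 0.0555), the gap junction gene inx-1 (−0.73, 0.0735), mir-63 (−3.06, 0.0748), twk-20 (−1.75, 0.0841), fbxa-141 (−1.13, 0.17), hsp-3 (−0.15, 0.771), hpl-1, a heterochromatin protein of the HP1 family (−1.85, 0.0848), and clec-266 (1.79, 0.147). The ribosomal protein list had no gene in the body or right end. The bin with the highest GFP-Dam level held lin-14, a timing gene of larval development, with a median of 2370 CPM in Dam-EMR and 2360 CPM in GFP-Dam libraries, and let-7, a microRNA that acts in the same timing pathway, lay in a bin of 518 CPM in Dam-EMR and 446 CPM in GFP-Dam.

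X bins shared further features that the choice did not use. They held 1.64 protein-coding genes per bin in the body and 1.18 in the right end. The left end of X held 1.44 and autosomes 2.09. MicroRNA genes numbered 3.25 and 2.5 per 100 bins in the body and right end, against 7.52 in the left end and 2.28 on autosomes. Over X bins, the mean Dam-EMR and GFP-Dam levels correlated at a Spearman rho of 0.96 (n = 1362), against 0.95 on autosomes (n = 7986), and the log2 ratio with the GFP-Dam level at 0.16 on X and 0.03 on autosomes. These are correlations across bins of the same libraries, which are not independent replicates, and the ratio contains the GFP-Dam level.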

How the data were processed

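The authors deposited raw counts of mapped reads in bins of 10 kb and 100 kb for each of 24 libraries, on ce11 per the submitters' processing notes. The log2 values deposited by the authors are Dam-EMR over GFP-Dam ratios per strain in 100 kb bins. They were recomputed from the counts as ratios of libraries scaled to their totals, averaged over replicates. The read aligner is not given in the sources used here. All sample columns were mapped to a sample, and 0 were left unmapped. Genes were placed by the midpoint given in a RefSeq table of assembly WBcel235, the same genome sequence as ce11.

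Zone values are means over bins of log2 (counts + 1 read, scaled to library totals) minus the autosomal mean, tested with limma 3.58.1 over 18 zones. Single bins and 1 Mb windows were tested by quasi-likelihood in edgeR 4.0.16 under R 4.3.3 (TMM factors, with filterByExpr for bins), all 8 groups together, with Benjamini-Hochberg adjustment over all 9735 bins or all windows. DESeq2 1.42.0 was an alternative. The others were a replicate block, RLE factors, library totals, no filter, other pseudocounts, medians, 100 kb bins, summed reads, a 50-read minimum, a sign-flip test, limma on windows, leaving out each round or pair, and classes of GFP-Dam level, the last added after seeing the data. The bins, gene lists and tests were chosen with earlier results of these data known.

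Named genes were those in called bins with the same sign in at least 10 of 12 pairs, up to 10 each way by size, the called bins or smallest p of each gene list, and up to 4 called bins each way between strains. Others are said to be chosen after their values were seen.

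Replicate numbers stand for rounds grown in parallel, per the labels. GFP-Dam libraries of the same round deviated together from their group means (median correlation over bins 0.503, from 0.263 to 0.706). In Dam-EMR this median was 0.0932, from −0.186 to 0.346. For different rounds the medians were −0.28 in GFP-Dam and −0.0508 in Dam-EMR. Subtracting the mean of 3 libraries itself pushes the values of different rounds below 0. Tested on simulated data, the averaged edgeR comparison recovered 12%, 62%, 96% and 94% of 50 bins each with 2-, 4-, 8- and 16-fold changes, with 8 false calls among 9735 bins. The simulated libraries were drawn independently from 1 shared profile, without strain or round effects. The simulation therefore does not give the rate of false calls when libraries of a round deviate together. The p-values measure the spread between samples. Counting intervals (95%) and the floor of 3 reads cover counting error only, since amplified reads are not independent molecules.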

Additional observations from a re-analysis of the deposited data

Results flagged for a closer look

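The X bin at 8.34 Mb, left out of all X values, took up to 5.07% of the reads of a Dam-EMR library. It was noticed because it lies outside the bins compared and stood far above its level in GFP-Dam. In the 4 Dam-EMR libraries of round 1 it took 1.15% to 5.07%, in the other 8 Dam-EMR libraries 0.0084% to 0.0687%, and in the 12 GFP-Dam libraries 0.00658% to 0.0282%. The round 1 pairs, where it was high, also gave the lowest ratio of the X body averaged over strains, and the part of either in the other was not tested.

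Among the 6 GFP-Dam libraries with the Y59C lamin, the lowest level of the X body relative to autosomes, 0.734 in round 2 of the Y59C cec-4 strain, stood apart from the other 5 (0.85 to 0.91). Chance marks about 1 in 20 groups in this way. The GFP-Dam libraries of round 2 averaged 0.76 over the 4 strains, against 0.86 in round 1 and 0.88 in round 3.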

How the results depend on the processing

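All 19 X bins named by the rule on calls kept their direction under all 20 alternatives. They were chosen for calls in these same libraries, so a kept direction was largely fixed by the choice. Of 380 values of these bins under the alternatives, 190 stayed past the threshold. None of the 19 did so without round 2 or without round 3. The cause of the changes below was not tested beyond the smaller number of libraries. For the averaged comparison, RLE factors gave 11 higher and 12 lower, library totals alone 4 higher, and DESeq2 38 and 65. In Y59C cec-4 DESeq2 gave 8 and 10, in GFP::LMN-1 1 lower. In Y59C, RLE factors gave 0 and 2, library totals 0 and 5, DESeq2 40 and 74. For Y59C minus GFP::LMN-1, the replicate block, RLE factors and library totals each gave 0 lower, DESeq2 3 higher and 17 lower. For Y59C cec-4 minus Y59C, no filter gave 2 higher, DESeq2 25 and 24. RLE factors, which moved the median of all bins by 0.105 (log2), gave 7 windows higher. The replicate block left 15 of the 19 named bins past the threshold and moved no zone across it, with limma adjusted p = 0.0625 for both.

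The body ratio was −0.286 with 5 reads added, 0.00807 from summed reads and −0.133 within classes of GFP-Dam level. The right end was −0.29 with 5 reads added and 0.0107 with at least 50 reads. Contrasts that were not called also turned. Y59C minus GFP::LMN-1 in the right end was 0.0464 with a scaled pseudocount and 0.0354 with at least 50 reads. Y59C cec-4 minus Y59C was −0.101 in the body and −0.036 in the right end with a scaled pseudocount, and in the right end −0.0665 with at least 50 reads and −0.00986 within classes. GFP::LMN-1 cec-4 minus GFP::LMN-1 with 5 reads added was 0.0165 in the body and 0.0293 in the right end, where the median gave 0.0263, at least 50 reads 0.0397 and classes 0.00841. The GFP-Dam level gave −0.0131 for the lamin in the right end with at least 50 reads and 0.0249 for cec-4 in the body with medians.

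Leaving out a round or pair gave 0 to 16 bins higher and 0 to 44 lower when averaged, 0 to 2 and 0 to 39 in Y59C, and 0 to 10 lower for Y59C minus GFP::LMN-1. It gave 0 to 9 higher for Y59C cec-4 minus Y59C, and 0 to 2 windows higher. The body ratio ran from −0.321 to −0.0652 and the right end from −0.342 to −0.0284. Y59C minus GFP::LMN-1 ran from −0.57 to −0.162 in the body and −0.456 to −0.103 in the right end, Y59C cec-4 minus Y59C from 0.056 to 0.438 and 5.27e-05 to 0.498, and GFP::LMN-1 cec-4 minus GFP::LMN-1 from −0.246 to 0.157 and −0.19 to 0.204. The GFP-Dam level ran from 0.0315 to 0.0557 and −0.000143 to 0.0364 for the lamin, and from −0.0344 to −0.00104 and 0.0181 to 0.031 for cec-4. In Y59C, the strain with the fewest Dam-EMR reads, 61 X bins held no Dam-EMR read, and the part of depth in this was not tested.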

Other observations

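The authors' deposited table of log2 ratios, in 100 kb bins with no replicates, gave a median in the X body of 0.13 in Y59C cec-4, −0.14 in Y59C, −0.10 in GFP::LMN-1 cec-4 and −0.04 in GFP::LMN-1. The autosomal medians in the authors' deposited table were 0.26, 0.04, 0.04 and 0.04 in the same order, so X stood below autosomes in each strain. Its right end medians were 0.16, −0.21, −0.21 and −0.08. The header of the GFP::LMN-1 cec-4 column names the same strain label in numerator and denominator. That column was taken as Dam-EMR over GFP-Dam of this strain from recomputation of the counts.

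The profile of the 1368 X bins with reads was repeatable in GFP-Dam, less so in Dam-EMR, and hardly in their ratio. Spearman's rho between libraries over these bins had a median of 0.701 in Dam-EMR (0.475 to 0.852) and 0.952 in GFP-Dam (0.89 to 0.995, 66 library pairs each). The ratio profiles of the 12 pairs had a median rho of 0.0547 (−0.293 to 0.362), with 0.14 within a round and 0.000539 within a strain. Averaged over strains, the ratio profiles of rounds 1 and 2 had a rho of −0.189, those of rounds 1 and 3 0.0941 and those of rounds 2 and 3 0.238. Neighbouring X bins had a rho of 0.226 in Dam-EMR level, 0.283 in GFP-Dam level and 0.0887 in the ratio (n = 1364). These are descriptions across bins, which share libraries and are not replicates.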
